A study of Mus musculus with 6 samples.

Results

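Cell cycle inhibitors and genes of the p53 axis were examined in the cochlea of young and old C57BL/6 mice, an inbred strain in which hearing loss starts early in life. The genes were 10 of the 25419 in the table (992 of these are single assembled noncoding transcripts), taken by name: the CIP/KIP inhibitors Cdkn1a, Cdkn1b and Cdkn1c, the INK4 inhibitors Cdkn2a, Cdkn2b, Cdkn2c and Cdkn2d, the tumour suppressor Trp53, and its targets Mdm2 and Ccng1. The young mice were 1 month old and the old mice 12 months old, with no treatment or transgene named in the labels and the sex not given. RNA came from the dissected basilar membrane of the cochlea, with tissue of 3 mice pooled per sample and 3 samples per age group. Values are FPKM, that is, fragments scaled to transcript length and to library size, summed over the transcripts of each gene.

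Cyclin-dependent kinases (CDKs) drive cells from G1 into S phase. INK4 proteins bind CDK4 and CDK6 and block their pairing with D-type cyclins, whereas CIP/KIP proteins bind complexes of cyclins with several CDKs. In the organ of Corti, hair cells and supporting cells leave the cell cycle before birth. Cdkn1b (p27Kip1) is needed for supporting cells to stay out of it, and Cdkn2d (p19Ink4d) together with Cdkn1a (p21) for hair cells. p53 induces Cdkn1a after DNA damage, and Cdkn2a (p16Ink4a) and Cdkn1a are widely used as markers of senescent cells. One locus, Cdkn2a, gives rise to an unrelated pair of proteins: p16Ink4a, which inhibits CDK4 and CDK6, and p19Arf, which binds the Mdm2 protein and so protects p53 from degradation.

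The sequence at the start of exon 2 shows how the pair arises, and it is why each Cdkn2a transcript was examined. Cdkn2a lies on the minus strand of chromosome 4 (GRCm38) from 89274471 to 89294653. Its transcripts Cdkn2a-201 (ENSMUST00000060501) and Cdkn2a-202 (ENSMUST00000107131) have their own first exons, whose starts lie 12461 nt apart, and share exon 2, from 89276645 to 89276985. In the sequences below, read from GENCODE M21, lower case is the end of exon 1 and capitals are the start of exon 2.
Cdkn2a-201: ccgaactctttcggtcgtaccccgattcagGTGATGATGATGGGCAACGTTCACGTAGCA
Cdkn2a-202: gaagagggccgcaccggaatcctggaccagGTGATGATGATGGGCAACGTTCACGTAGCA
The capitals are the same in both, while 10 of the 30 bases before them are identical. The coding frame enters exon 2 at offset 0 in Cdkn2a-201, the p16Ink4a transcript, and at offset 1 in Cdkn2a-202, the p19Arf transcript, so that the same bases are read as different codons.

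The CIP/KIP genes are related to each other in a short coding stretch near the start of each protein, which holds the motif that binds cyclins. The stretches are shown because Cdkn1b and Cdkn1c differed with age in opposite directions. Capitals mark the codons of the motif, and the stretches lie at chr17:29098438-29098494 in exon 2 of Cdkn1a (plus strand), chr6:134920986-134921042 in exon 1 of Cdkn1b (plus strand) and chr7:143460576-143460632 in exon 2 of Cdkn1c (minus strand).
Cdkn1a: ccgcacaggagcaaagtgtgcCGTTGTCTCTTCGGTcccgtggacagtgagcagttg
Cdkn1b: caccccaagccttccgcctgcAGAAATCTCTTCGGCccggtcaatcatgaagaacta
Cdkn1c: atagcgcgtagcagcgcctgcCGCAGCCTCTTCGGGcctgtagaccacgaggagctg
Of the 57 aligned bases, 29 were identical between Cdkn1a and Cdkn1b, 34 between Cdkn1a and Cdkn1c, and 31 between Cdkn1b and Cdkn1c.

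The samples carried the markers of the dissected tissue, and their makeup differed with age. The summed FPKM of 10 hair cell markers was 545.2 to 629.5 in young and 312.3 to 360.4 in old samples. Most of it was Pvalb (means 328.4 and 175.7 FPKM) and Ocm (135.2 and 58.4 FPKM), while Myo7a was at 6.13 and 5.96 FPKM. In the test described below, 3 of the 10 were lower and 0 higher (all genes: 3.81% and 5.65%). For 8 supporting cell markers the sum was 1365 to 1547 in young and 1552 to 1691 in old samples, mostly Gjb6, Gjb2 and Epyc. Of these 8, 1 was higher (Otoa) and 1 lower (Prox1, means 3.92 and 1.89 FPKM). The sum of 6 neuronal markers was 501.8 to 977.4 in young and 333.4 to 365.0 in old samples, and that of 5 Schwann cell markers was 739.7 to 1152 and 630.9 to 656.9. The sum of 8 macrophage markers was 56.5 to 91.0 in young and 208.6 to 272.6 in old samples. For 5 bone cell markers it was 200.8, 26.8 and 85.9 in young replicates 1, 2 and 3 and 27.1 to 30.9 in old samples. For 5 erythroid markers it was 1434 to 2946 in young and 1369 to 2254 in old samples. Every marker of these lists was above 0 on average in both groups. In bulk tissue, fewer cells of a type and less RNA per cell cannot be told apart. The depth was estimated at 12460000 to 15660000 fragments per sample from the steps between low FPKM values.

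The age groups were compared with limma on log2(FPKM + 0.1), with the Benjamini-Hochberg adjustment over all 19465 genes with a mean of at least 0.1 FPKM. Of the 10 genes, 9 entered the test and Cdkn2a was below the filter. With a limma adjusted p below 0.05, 1 of the 9 was higher in old mice, Cdkn1c, where 5.65% of all genes tested were higher. With the same rule 1 of the 9 was lower, Cdkn1b, where 3.81% of all genes tested were lower. At an unadjusted p below 0.05, 2 were higher and 2 were lower, against 14.6% and 13.1% of all genes. The groups did not overlap for 2 of the 9 with the old samples higher and for 3 of the 9 with the old samples lower, against 17.6% and 16.1% of all genes. The median log2 change was -0.06 over the 9 genes and 0.0088 over all genes tested. Each share of 11.1% is a single gene, so nothing is read from it about the genes as a group.

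**Figure D1:**
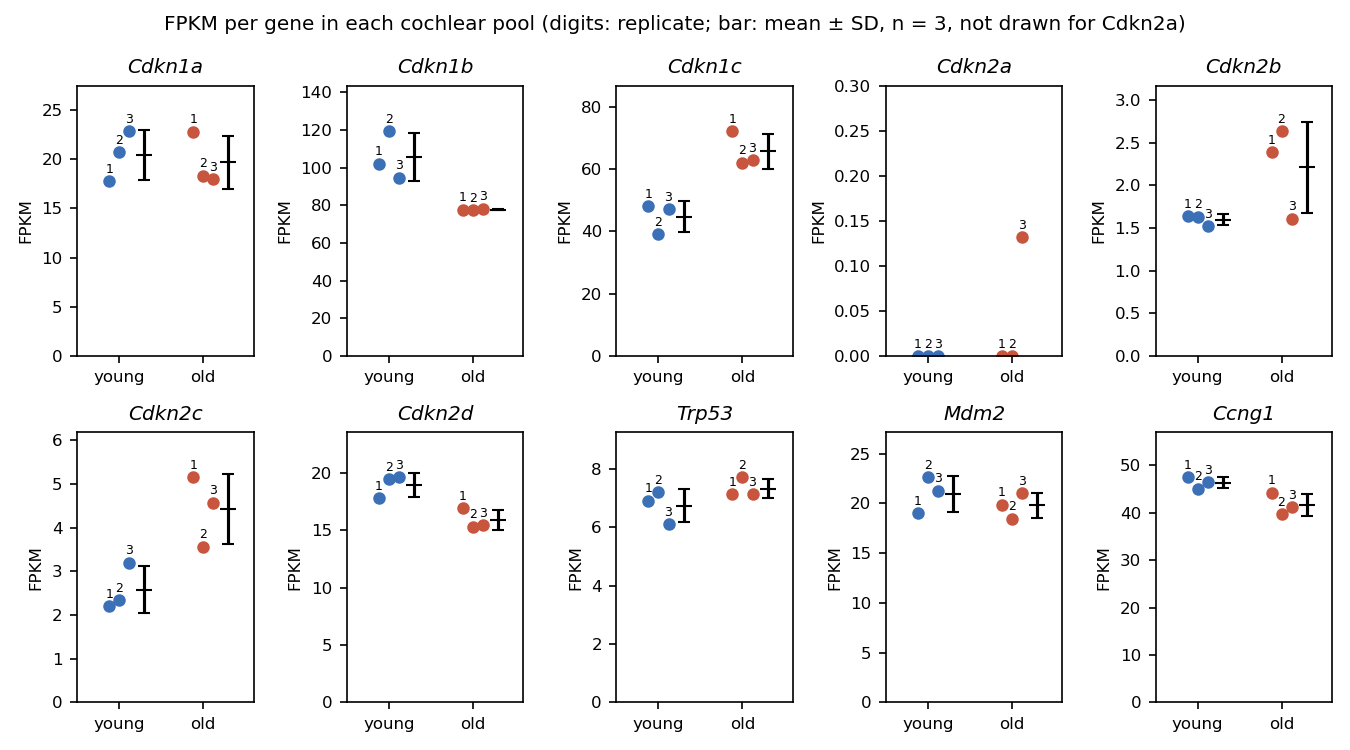
FPKM (y axis, linear and starting at 0, each gene on its own scale) of the 10 genes in the 3 young and 3 old cochlear samples, with digits for the replicate and a bar for mean ± SD (not drawn for Cdkn2a). The old values of Cdkn1b lie at 77.4 to 78.2 FPKM below all young values, those of Cdkn1c lie at 62.0 to 72.2 FPKM above all young values, and Cdkn2a is above 0 in old replicate 3 and in no other sample.

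Cdkn1b, which encodes p27Kip1, was the most abundant of the 10 genes and was lower in old mice. It was at 102.1, 119.5 and 94.7 FPKM in the young samples (replicates 1, 2 and 3, the order used throughout) and at 77.6, 77.4 and 78.2 FPKM in the old samples. The groups did not overlap, and the old samples lay within 1 FPKM of each other while the young samples spread far more widely (coefficient of variation 12.0% in young and 0.579% in old samples). Counting error alone is larger than this old spread: old replicate 1 had 2555 estimated fragments (exact Poisson 95% interval 2456.9 to 2656.0). No difference in spread between the ages is therefore read from it. The mean fell from 105.4 ± 12.7 FPKM (SD, n = 3) to 77.7 ± 0.450 FPKM (SD, n = 3), which is 0.737 times the young level. The log2 change was -0.43 (SE 0.09, 95% interval -0.64 to -0.22, limma adjusted p = 0.0312). Young replicate 2 held the highest Cdkn1b value and the highest sum of neuronal markers (977.4 FPKM). The sums of hair cell and Schwann cell markers were highest in young replicate 1 (629.5 and 1152 FPKM). Young replicate 3 held the lowest of the young values of Cdkn1b and of each of these sums. For the hair cell sum this followed Pvalb, at 365.3, 364.1 and 255.9 FPKM in young samples. Ocm, at 140.2, 91.9 and 173.5 FPKM, was instead highest in young replicate 3. Markers were also lower in 5 of 6 neuronal, 3 of 10 hair cell, 2 of 5 Schwann cell and 2 of 5 bone cell genes (limma adjusted p below 0.05). Of 8 supporting cell markers 1 was higher and 1 lower, with sums of 1365 to 1547 FPKM in young and 1552 to 1691 FPKM in old samples. Of 8 macrophage markers 7 were higher, and of 5 erythroid markers 0 passed. Lower genes were 3.81% and higher genes 5.65% of all genes tested. The part of these markers in the difference of Cdkn1b was not tested.

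Cdkn1c encodes p57Kip2 and is an imprinted gene, expressed from the maternal copy. It was at 47.9, 39.0 and 47.1 FPKM at 1 month and at 72.2, 62.0 and 62.9 FPKM at 12 months. Each old value exceeded each young value. The mean rose from 44.7 ± 4.92 FPKM to 65.7 ± 5.62 FPKM (SD, n = 3 each), 1.47 times the young level. The log2 change was 0.56 (SE 0.10, 95% interval 0.32 to 0.80, limma adjusted p = 0.0251).

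An annotated antisense gene, Gm44732, lies on the plus strand opposite Cdkn1c, and 625 of its 635 nt fall inside Cdkn1c exons. It was at 19.7, 16.5 and 17.3 FPKM in young and 26.8, 27.1 and 29.3 FPKM in old samples (log2 change 0.64, SE 0.09, limma adjusted p = 0.0149, no longer passing without old replicate 2 or old replicate 3, with the highest limma adjusted p at 0.0626). The libraries were directional, but whether strand was used in the quantification is not given in the sources used here. If it was not, fragments of the overlapping pair cannot be told apart, and the values of Cdkn1c and Gm44732 are uncertain to that extent.

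The calls of Cdkn1b and Cdkn1c were both lost under some other settings. Without the variance trend the limma adjusted p was 0.0997 for Cdkn1b and 0.0800 for Cdkn1c, and with the most abundant transcript of each gene it was 0.0752 and 0.0748. With each sample left out in turn, the log2 change of Cdkn1b stayed between -0.51 and -0.34 and that of Cdkn1c between 0.46 and 0.61. Cdkn1b no longer passed without young replicate 1 (limma adjusted p = 0.0681), young replicate 2 (0.0641), old replicate 1 (0.0849), old replicate 2 (0.107) or old replicate 3 (0.0823). Cdkn1c no longer passed without young replicate 2 (limma adjusted p = 0.0604), old replicate 1 (0.0697), old replicate 2 (0.0751) or old replicate 3 (0.0642). For single genes the smallest two-sided p of an exact permutation test of 3 samples against 3 is 0.1, which both genes reached.

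Cdkn1a encodes p21, the inhibitor that p53 induces. It was at 17.8, 20.7 and 22.9 FPKM in young and at 22.8, 18.3 and 18.0 FPKM in old samples. The groups overlapped over nearly their whole range. The log2 change was -0.06 (SE 0.13, 95% interval -0.36 to 0.25, limma adjusted p = 0.815). Differences of either sign within that interval remained compatible with the values. The sign of the log2 change turned without young replicate 3 (0.03) and without old replicate 3 (0.0057).

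The summed level of the CIP/KIP genes overlapped between the ages while its makeup differed. Their summed FPKM was 167.9, 179.2 and 164.7 in young and 172.6, 157.7 and 159.1 in old samples, with overlapping groups (exact permutation test, two-sided, p = 0.3). Cdkn1b made up 60.8, 66.7 and 57.5% of this sum in young samples and 45.0, 49.1 and 49.2% in old samples. Cdkn1c made up 28.6, 21.8 and 28.6% in young and 41.8, 39.3 and 39.5% in old samples. The ratio of Cdkn1b to Cdkn1c was 2.13, 3.06 and 2.01 in young samples and 1.08, 1.25 and 1.24 in old samples (p = 0.1 by the exact permutation test). These ratios are of FPKM and thus per length, and they restate the changes of both genes within each sample.

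**Figure D2:**
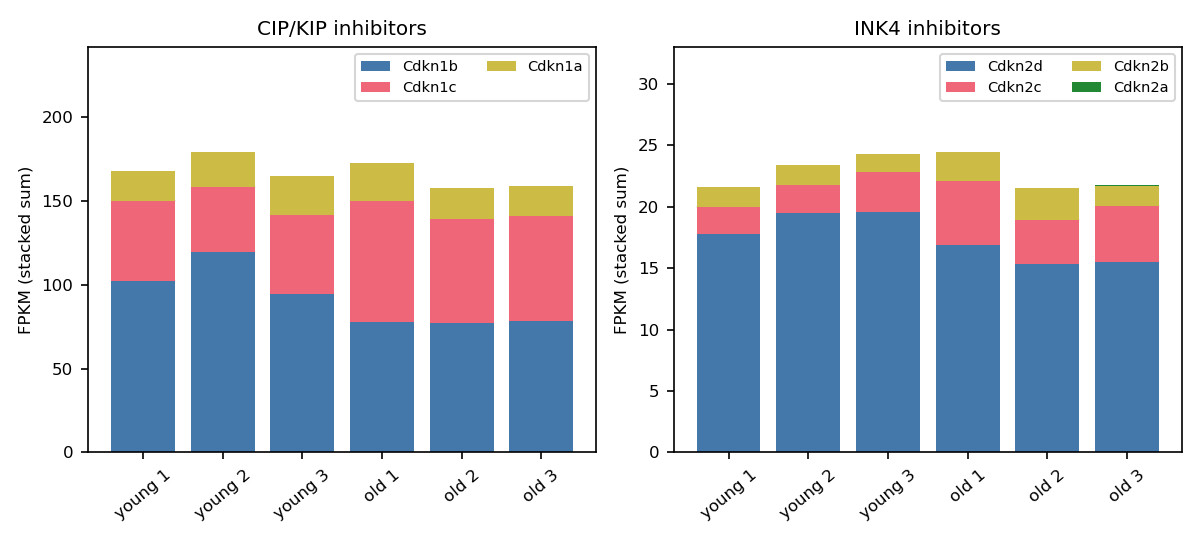
Stacked FPKM of the CIP/KIP genes (left) and the INK4 genes (right) in each sample, on linear axes from 0. The CIP/KIP sum lies between 157.7 and 179.2 FPKM in all samples while the Cdkn1c part is larger in the old ones, and Cdkn2d is the largest part of the INK4 sum throughout.

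Among the INK4 genes, Cdkn2a was at or near 0 at both ages. Cdkn2a-201, the p16Ink4a transcript, was listed at 0 in young replicates 1, 2 and 3 and in old replicates 1 and 2, and at 0.132 FPKM in old replicate 3. At the estimated depth this value corresponds to 1.0 fragment. Cdkn2a-202, the p19Arf transcript, was listed at 0 in all 6 samples. A listed 0 was given a limit of 3 fragments, the one-sided 95% Poisson limit (the two-sided upper bound is 3.69 fragments). It corresponds to between 0.335 and 0.430 FPKM for Cdkn2a-201 over the 5 samples at 0, and to between 0.311 and 0.399 FPKM for Cdkn2a-202 over all 6. These limits cover counting error only. Summed over a group, Cdkn2a had 0 estimated fragments in young and 1 in old samples (exact Poisson 95% upper bounds 3.69 and 5.57). A difference in Cdkn2a between the ages that stays below these limits was thus not detectable at this depth. No widely used control gene out of 8, Actb and Gapdh among them, was listed at 0 in any sample. That does not test a listed 0 of a gene of low level such as Cdkn2a. Without the filter on low values, the log2 change of Cdkn2a was 0.40 (SE 0.38, limma adjusted p = 0.555), which rests on that 1 fragment.

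Cdkn2b, which encodes p15Ink4b, lies 11645 nt from Cdkn2a on the same strand. It was at 1.64, 1.63 and 1.53 FPKM in young and at 2.39, 2.64 and 1.61 FPKM in old samples. Old replicate 3 lay within the young range and the other old samples lay above it. Its log2 change was 0.42 (SE 0.23, 95% interval -0.13 to 0.96, limma adjusted p = 0.291). Its values rest on 21 to 46 estimated fragments per sample.

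Cdkn2c, which encodes p18Ink4c, was at 2.21, 2.34 and 3.20 FPKM in young and at 5.15, 3.57 and 4.57 FPKM in old samples. The old samples were all higher than the young ones, and the old mean was 1.72 times the young mean. The log2 change was 0.76, the largest in size of the 9 genes tested, but with SE 0.21 and a 95% interval of 0.27 to 1.25 it did not pass the threshold (limma adjusted p = 0.0657). It passed without young replicate 3 (log2 change 0.92, limma adjusted p = 0.0457) and was not called without any of the other samples. The values rest on 36, 41 and 42 estimated fragments in young and 62, 61 and 63 in old samples. Summed over a group these are 119 fragments in young (exact Poisson 95% interval 98.6 to 142.4) and 186 in old samples (160.2 to 214.7), intervals that cover counting error only.

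Cdkn2d, which encodes p19Ink4d, was the most abundant INK4 gene. It was at 17.8, 19.5 and 19.6 FPKM in young and at 16.9, 15.3 and 15.5 FPKM in old samples. The old samples were all lower than the young ones, although old replicate 1 and young replicate 1 differed by less than 1 FPKM. It changed by -0.25 on the log2 scale (SE 0.09, 95% interval -0.45 to -0.05), which did not pass the threshold (limma adjusted p = 0.109). The table holds 1 of its 3 annotated transcripts, Cdkn2d-201, for which GENCODE M21 gives a coding region of 150 nt. Cdkn2d-203, not in the table, has a coding region of 498 nt and shares 1212 nt with it.

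The INK4 sum was 21.6, 23.4 and 24.3 FPKM in young and 24.5, 21.5 and 21.8 FPKM in old samples, with overlapping groups (exact permutation test, two-sided, p = 0.9). Cdkn2d made up 82.2, 83.1 and 80.6% of it in young and 69.2, 71.2 and 71.0% in old samples (p = 0.1 by the exact permutation test). The ratio of Cdkn2c to Cdkn2d was 0.124, 0.120 and 0.163 in young and 0.304, 0.233 and 0.296 in old samples, again without overlap (exact permutation test, two-sided, p = 0.1).

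**Figure D3:**
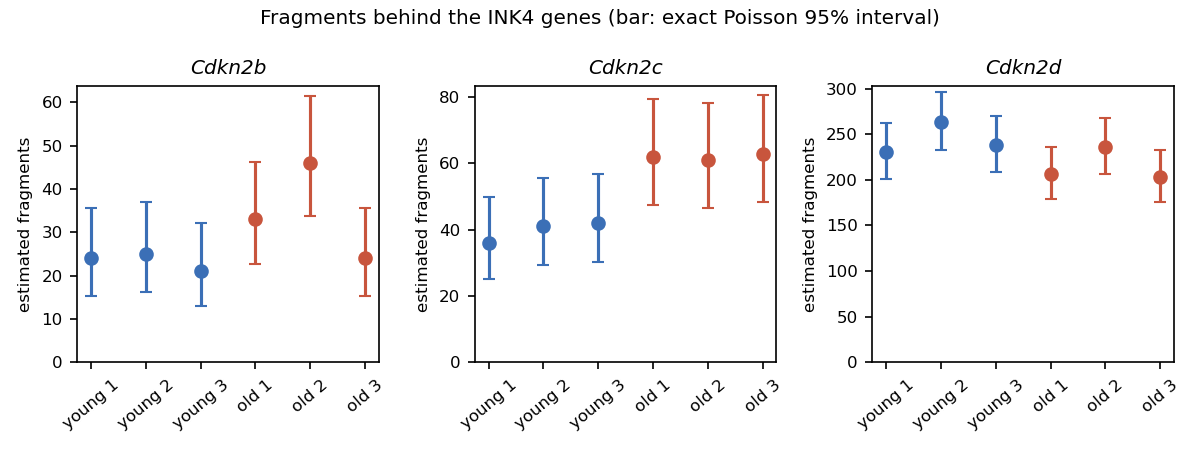
Estimated fragments (y axis, linear from 0) of Cdkn2b, Cdkn2c and Cdkn2d in each sample, young in blue and old in red, with exact Poisson 95% intervals. Cdkn2c lies at 36 to 42 fragments in young and 61 to 63 in old samples, and Cdkn2b in old replicate 3 lies at the young level.

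None of Trp53, Mdm2 and Ccng1 passed the test. Trp53, which encodes p53, was at 6.90, 7.20 and 6.11 FPKM in young and at 7.13, 7.70 and 7.13 FPKM in old samples. Young replicate 2 lay above the lower old samples, and the log2 change was 0.12 (SE 0.11, 95% interval -0.15 to 0.39, limma adjusted p = 0.532). Mdm2, the ubiquitin ligase that marks p53 for degradation, was at 18.98, 22.6 and 21.3 FPKM in young and at 19.9, 18.5 and 21.03 FPKM in old samples. The groups overlapped, and the log2 change was -0.08 (SE 0.10, 95% interval -0.30 to 0.14, limma adjusted p = 0.630).

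Ccng1 encodes cyclin G1 and is a p53 target of high level in many tissues. It was at 47.5, 45.1 and 46.5 FPKM in young and at 44.2, 39.7 and 41.2 FPKM in old samples. The old samples lay below the young ones, by less than 1 FPKM between old replicate 1 and young replicate 2. On the log2 scale it changed by -0.15 (SE 0.07, 95% interval -0.32 to 0.01) and did not pass the threshold (limma adjusted p = 0.199).

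**Figure D4:**
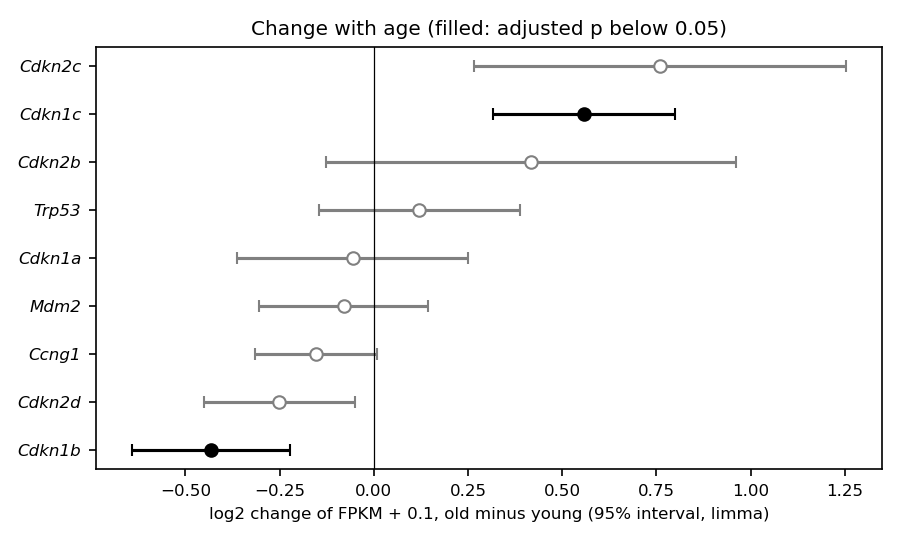
Log2 change of FPKM + 0.1, old minus young, for the 9 genes tested, with 95% intervals from limma (x axis, log2 scale). Cdkn1b (-0.43) and Cdkn1c (0.56) are filled because their adjusted p was below 0.05, and the interval of Cdkn1a reaches from -0.36 to 0.25.

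Ordered by their level in young samples, the genes were Cdkn1b, Ccng1, Cdkn1c, Mdm2, Cdkn1a, Cdkn2d, Trp53, Cdkn2c, Cdkn2b and Cdkn2a. Neighbours in this order overlapped between Ccng1 and Cdkn1c, between Mdm2 and Cdkn1a, and between Cdkn1a and Cdkn2d. In old samples Cdkn1c, at 62.0 to 72.2 FPKM, stood above Ccng1, at 39.7 to 44.2 FPKM, without overlap, and Mdm2 and Cdkn1a were the only neighbours that overlapped. Over all samples the mean of Cdkn1b was above that of 95.6% of the genes tested, that of Cdkn1c above 91.9% and that of Cdkn1a above 76.1%. Trp53 stood above 53.2% and Cdkn2b above 32.1%.

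By transcript, 23 of the 38 annotated transcripts of the 10 genes were in the table and 20 entered the test over 38764 transcripts. With a limma adjusted p below 0.05, 0 were higher and 0 were lower, against 0.549% and 0.199% of all transcripts, and the lowest limma adjusted p was 0.107. At an unadjusted p below 0.05, 4 of the 20 were higher and 4 lower, against 9.05% and 7.98% of all transcripts. The groups did not overlap for 5 higher and 5 lower transcripts, against 12.6% and 12.0% of all. The main transcripts of Cdkn1b went the same way, Cdkn1b-201 from a mean of 74.1 to 55.2 FPKM and Cdkn1b-202 from 29.4 to 20.6 FPKM, each with all old samples below all young samples. For Cdkn1c, old samples lay above young samples in Cdkn1c-201 (means 33.5 and 45.3 FPKM), Cdkn1c-202 (6.97 and 12.0 FPKM) and Cdkn1c-205 (3.75 and 7.74 FPKM).

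Cdkn2c and Trp53 each had more than 1 transcript above the filter. Cdkn2c-201 was at 1.54, 1.57 and 2.65 FPKM in young and 4.60, 2.87 and 3.89 FPKM in old samples, while Cdkn2c-202, with another start and the same coding length of 504 nt, was between 0.549 and 0.767 FPKM in all samples with overlapping groups. The share of Cdkn2c-201 in its gene was 69.9, 67.2 and 82.7% in young and 89.3, 80.6 and 85.1% in old samples, with overlapping groups (p = 0.2 by the exact permutation test). Trp53-203, with a coding region of 1170 nt, made up 79.8, 69.9 and 74.0% of Trp53 in young and 81.3, 85.6 and 82.6% in old samples. Trp53-201, with a coding region of 1161 nt, made up 20.2, 18.7 and 25.96% in young and 11.6, 14.4 and 14.5% in old samples (exact permutation test of each share, two-sided, p = 0.1). Trp53-201 holds 1 nt that Trp53-203 does not and shares the rest of its exon sequence with it, and their split rests on the estimate made by the authors' software.

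Other genes of the pathway were taken from 7 lists with 129 genes, of which 124 entered the test. With a limma adjusted p below 0.05, 12 were higher and 1 was lower in old mice, 9.68% and 0.806% of those tested against 5.65% and 3.81% of all genes. Of the 12, 7 were in the list of senescence-associated genes. Among the 12, Il6 and Pmaip1 met the filter only through their old values. The lists were chosen with earlier results of these data known, so that these shares are no test of the lists. The count of higher genes was 9, 4 and 7 with young replicate 1, 2 or 3 left out, and 5, 0 and 4 with old replicate 1, 2 or 3 left out. The count of lower genes was 0 when young replicate 1, young replicate 2 or old replicate 2 was left out and otherwise 1.

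**Figure D5:**
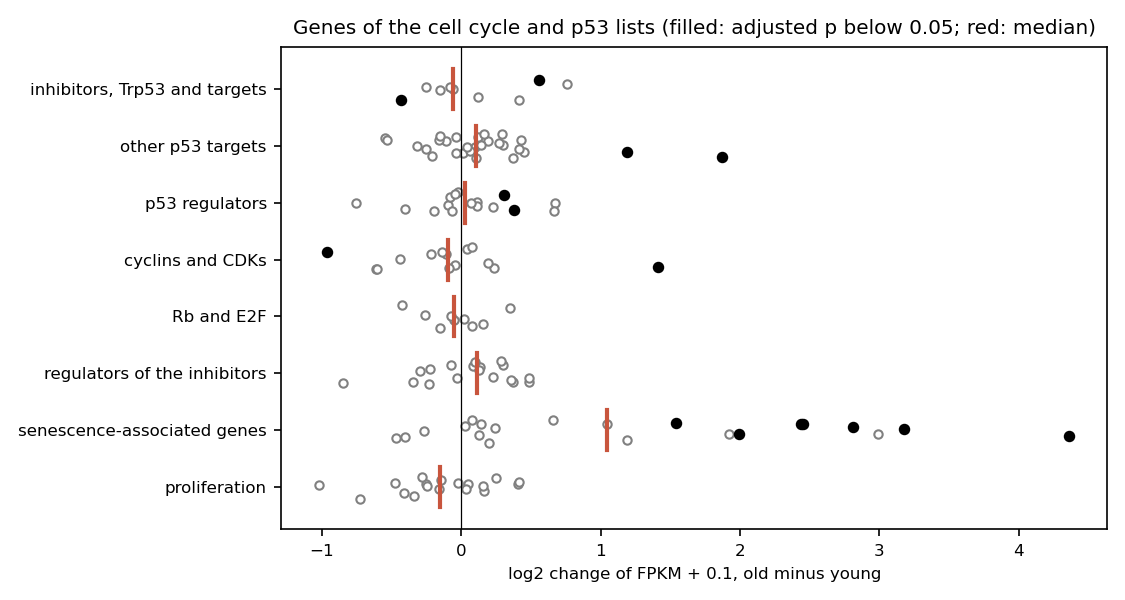
Log2 change of FPKM + 0.1, old minus young (x axis, log2 scale), for each gene tested of the 10 genes and the 7 lists, with filled points for an adjusted p below 0.05 and a red bar at each median. The median of the senescence-associated list is 1.04 and those of the other lists lie between -0.15 and 0.11.

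Of the other p53 targets, 2 of 28 tested were higher (7.14%, against 5.65% of all genes) and 0 lower, with a median log2 change of 0.10. Btg2, an antiproliferative early-response gene, rose from 15.3 to 34.3 FPKM (log2 change 1.19, SE 0.25, limma adjusted p = 0.0334). Pmaip1, which encodes the proapoptotic protein Noxa, rose from 0.0966 to 0.583 FPKM (log2 change 1.87, SE 0.47, limma adjusted p = 0.0487). Its young mean was below 0.1 FPKM, so that it met the filter only through its old values. Btg2 passed without young replicate 1 and lost its call without each of the other samples, and Pmaip1 lost it without each of the 6. The log2 change of Pmaip1 was 2.78 with a pseudocount of 0.01 (limma adjusted p = 0.0619) and 0.53 with a pseudocount of 1. Its call was also lost with quantile normalization (0.0565), without the variance trend (0.0539) and with the most abundant transcript (0.0595). The most abundant of these targets did not pass: Trp53inp1 was at 72.2 and 95.7 FPKM in young and old mice (limma adjusted p = 0.159) and Sesn1, which encodes a stress-induced sestrin, at 64.9 and 69.0 FPKM (0.610).

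Of 16 p53 regulators tested, 2 were higher and 0 were lower (12.5% and 0%, against 5.65% and 3.81% of all genes), with a median log2 change of 0.02. Both are ribosomal proteins that bind Mdm2: Rpl5 rose from 298.1 to 387.6 FPKM (log2 change 0.38, SE 0.08, limma adjusted p = 0.0288) and Rpl11 from 449.8 to 557.6 FPKM (log2 change 0.31, SE 0.07, limma adjusted p = 0.0387). With quantile normalization these log2 changes were 0.21 and 0.08 and did not pass (limma adjusted p = 0.0898 and 0.449). Rpl5 passed without young replicate 1 and with no other sample left out, and Rpl11 lost its call without each of the 6.

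D-type cyclins, the partners that INK4 proteins displace from CDK4 and CDK6, went different ways. Ccnd1 was at 4.75, 3.28 and 4.89 FPKM in young and 12.0, 11.3 and 11.1 FPKM in old samples (log2 change 1.41, SE 0.17, limma adjusted p = 0.0111). Ccnd2 was at 13.5, 11.7 and 15.6 FPKM in young and 8.71, 6.69 and 5.60 FPKM in old samples (log2 change -0.96, SE 0.18, limma adjusted p = 0.0258). The groups of both genes did not overlap. Ccnd1 and Ccnd2 were the only calls among 14 cyclin and CDK genes tested (7.14% higher and 7.14% lower, against 5.65% and 3.81% of all genes). The median log2 change of the 14 was -0.10. Ccnd1 lost its call without old replicate 2 (limma adjusted p = 0.0541), and Ccnd2 lost it without young replicate 1 (0.0637), young replicate 2 (0.0577), old replicate 2 (0.0906) or old replicate 3 (0.0669). Ccnd3 was at 53.5 and 53.8 FPKM in young and old mice and Cdk4 at 25.3 and 29.9 FPKM, neither past the threshold (limma adjusted p = 0.920 and 0.195).

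Of the Rb and E2F genes, which CDKs regulate, 0 of 9 tested passed with limma in either direction, and the median log2 change was -0.05. At an unadjusted p below 0.05, 0 were higher and 1 was lower, against 14.6% and 13.1% of all genes. The most abundant Rb and E2F genes were Rbl2, at 26.3 and 23.6 FPKM, and E2f5, at 17.3 and 17.5 FPKM. Of 18 regulators of the inhibitors, among them the Polycomb genes that silence the Cdkn2a locus, 0 passed with limma, and the median log2 change was 0.11. With an unadjusted p below 0.05, 5 were higher and 2 lower, against the same 14.6% and 13.1% of all genes. Bmi1, a Polycomb subunit, was at 40.9 and 39.98 FPKM and Id1, an inhibitor of basic helix-loop-helix factors, at 84.6 and 115.7 FPKM (limma adjusted p = 0.843 and 0.125).

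Proliferation genes did not pass either, with 0 calls by limma among 18 tested. An unadjusted p below 0.05 gave 2 higher and 1 lower, against 14.6% and 13.1% of all genes. The median log2 change of the proliferation genes was -0.15. Their summed FPKM was 109.4 to 127.2 in young and 104.4 to 116.6 in old samples. The sum hides a spread among the young samples in low mitotic genes, of which Mki67 and Top2a are named because their values were seen. Mki67 was at 1.43, 0.140 and 0.0982 FPKM in young and 0.496, 0.351 and 0.356 FPKM in old samples. Top2a was at 2.09, 0.292 and 0.195 FPKM in young and 0.354, 0.503 and 0.450 FPKM in old samples. For both, the direction with age thus depends on young replicate 1. Pcna, the sliding clamp of DNA polymerase, was at 57.6 and 56.7 FPKM (limma adjusted p = 0.855). Mcm7, a subunit of the replicative helicase, was at 19.7, 18.9 and 18.97 FPKM in young and 12.0, 13.0 and 16.7 FPKM in old samples, without overlap (limma adjusted p = 0.0615).

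Senescence-associated genes were higher in old mice in 7 of 21 cases tested (33.3%, against 5.65% of all genes) and lower in 0, with a median log2 change of 1.04. The list was chosen with earlier results of these data known, so that this share is no test of the list. Genes named by size of change on this scale were secreted factors. The chemokine Ccl8 was at 0.342, 0 and 0 FPKM in young and 1.48, 8.65 and 2.69 FPKM in old samples (log2 change 4.36, SE 0.80, limma adjusted p = 0.0244). The elastase Mmp12 rose from 0.301 to 3.32 FPKM (log2 change 3.18, SE 0.35, limma adjusted p = 0.0110) and the cytokine Il6 from 0.0247 to 0.577 FPKM (log2 change 2.45, SE 0.44, limma adjusted p = 0.0240). Il6 was at 0, 0.0351 and 0.0390 FPKM in young samples. Its young mean was below 0.1 FPKM, so that it met the filter only through its old values. The chemokine Ccl2 was at 0.432, 0.276 and 0.461 FPKM in young and 1.38, 10.3 and 2.41 FPKM in old samples (log2 change 2.81, SE 0.67, limma adjusted p = 0.0429), and without old replicate 2, its highest value, the log2 change was 2.00. Plaur, Gdf15 and Cxcl1 also passed and are named because their values were seen, with means of 1.14 and 6.50, 4.21 and 12.3, and 0.544 and 2.24 FPKM. The order of these changes depended on the pseudocount. With 0.01 and 1 in place of 0.1, the log2 change was 6.64 and 2.01 for Ccl8, 3.57 and 1.74 for Mmp12, 3.07 and 1.70 for Ccl2, 4.38 and 0.62 for Il6, and 2.54 and 1.80 for the surface receptor gene Plaur, against 2.44 for Plaur with 0.1. Ccl2 did not pass with a pseudocount of 1 (limma adjusted p = 0.0878), and Il6 did not pass with its most abundant transcript (log2 change 1.44, limma adjusted p = 0.293).

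Without old replicate 2 none of these 7 genes passed, with limma adjusted p from 0.0520 for Mmp12 to 0.102 for Cxcl1. No other gene of the 7 pathway lists passed in that setting. The log2 changes of Mmp12 (3.25), Il6 (2.50) and Cxcl1 (2.04) were then no smaller than with all samples. Those of Ccl8 (3.68), Ccl2 (2.00), Plaur (2.22) and Gdf15 (1.415) were smaller. Mmp12, Plaur and Gdf15 kept their calls without each of the other samples, while Ccl8 also lost its call without young replicate 2 or old replicate 3, and Ccl2 lost it without each of the 6. Il6 and Cxcl1 lost theirs without young replicates 1 or 2 or any old replicate. The most abundant genes of the list did not pass: Hmgb1 was at 174.1 and 183.0 FPKM and Igfbp5 at 108.0 and 109.4 FPKM. Macrophages are known to make several of these secreted factors. Of 8 macrophage markers 7 were higher in old mice by the same test (87.5%, against 5.65% of all genes, median log2 change 1.68). The part of these markers in the result was not tested.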

How the data were processed

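RNA of the cochlear basilar membrane was sequenced by the authors from 3 young and 3 old samples, each a pool of 3 mice. Per the labels and the study's methods, reads were aligned to GRCm38 (the submitters' processing notes name TopHat2 2.0.9), transcripts were assembled with Cufflinks 2.1.1, and FPKM per transcript and sample, the deposited unit, came from Cuffdiff 2.1.1. The annotation release and the scaling between libraries are not given in the sources used here. Cuffdiff, the test of the study, needs reads, so that limma was used in its place.

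Of 55679 Ensembl transcripts, 55275 were matched to GENCODE M21 and their FPKM summed per gene, and 404 unmatched ones entered the transcript test only. Genes with a mean of at least 0.1 FPKM were tested with limma 3.58.1 in R 4.3.3 (eBayes with trend) on log2(FPKM + 0.1), two-sided, with the Benjamini-Hochberg adjustment over all genes. Fold changes on this scale understate those of low genes. Code was tested on simulated data. Fragments per sample were estimated from single-transcript genes of 1000 to 4000 nt, where 92.5 to 93.7% of low values lay within 0.1 of a whole number (20% by chance). Python 3.11.15 was used for tables and figures. The limma p-values set the age difference against the spread between the 3 pools of each group, moderated toward a variance trend over all genes.

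The genes and lists (other p53 targets, p53 regulators, cyclins and CDKs, Rb and E2F, regulators of the inhibitors, senescence-associated genes, proliferation, and 7 lists of cell type markers) were chosen from general knowledge with earlier results of these data known. Named beside the 10 genes are, per pathway list, up to 4 genes past the threshold by size of change and the 2 most abundant. Alternatives were the pseudocount, filter, scaling, variance trend, sample weights, a replicate block, each sample left out, the transcripts summed, and an unadjusted p.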

Additional observations from a re-analysis of the deposited data

How the results depend on the processing

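Of the 10 genes, Cdkn1c and Cdkn1b were counted as 1 higher and 1 lower. Without the variance trend both counts were 0, and with the most abundant transcript of each gene both were 0. Summing protein-coding transcripts gave 2 higher, and an unadjusted p gave 2 higher and 2 lower. With a sample left out the counts ranged from 0 to 2 higher and from 0 to 1 lower. The replicate numbers do not pair the samples (correlations of same-numbered deviations 0.023, -0.041 and 0.011), and with a replicate block 0 of the 10 genes were lower, Cdkn1b having a limma adjusted p of 0.0597. The pathway lists went from 12 higher and 1 lower to 5 (Ccnd1, Mmp12, Il6, Plaur and Gdf15) and 0 without the trend. They gave 6 and 0 with the replicate block. An unadjusted p gave 27 and 10, where 14.6% of all genes were higher and 13.1% lower. With a sample left out, the lists gave between 0 and 9 higher and between 0 and 1 lower. The lower count was 3 with a filter of at least 1 FPKM, with sample weights and with protein-coding transcripts, and 2 with transcripts of at least 400 nt. With fewer samples the test has less power; other causes were not tested.

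Genes with changes near 0 turned sign: Hmgb1 (-0.024) and Igfbp5 (-0.057) with quantile normalization, Ccnd3 (-0.032) and Bmi1 (0.00011) with sample weights, Ccnd3 (-0.017) with transcripts of at least 400 nt, and E2f5 (-0.0091) and Hmgb1 (-0.092) with the most abundant transcript. With a sample left out, log2 changes ranged from -0.17 to 0.028 for Cdkn1a, -0.22 to 0.21 for Ccnd3, -0.092 to 0.087 for E2f5, -0.10 to 0.0077 for Bmi1, -0.12 to 0.12 for Igfbp5, -0.0086 to 0.13 for Hmgb1 and -0.058 to 0.012 for Pcna. The other 8 of the 9 genes tested kept their sign under every alternative. Cdkn2a transcripts were below the filter except where no filter was used, and 0 passed in the 15 settings run.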
